A study of Mus musculus with 6 samples.

Results

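Fetal growth and heterochronic genes are read here in lung of Carm1 knockout and wild-type mice. The set was chosen by gene name as a gauge of fetal maturity: the let-7 inhibitors Lin28a and Lin28b, the chromatin proteins Hmga1 and Hmga2, the RNA-binding proteins Igf2bp1, Igf2bp2 and Igf2bp3, the transcription factor Mycn and the ubiquitin ligase Trim71. Of the 9 genes listed, 7 had probe sets under their symbol, gene ID or an older alias, 22 probe sets in all, out of 18194 named genes and 45101 probe sets on the array. Hmga1 and Igf2bp2 were not analysed here.

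The knockout group held 3 arrays of lung RNA from Carm1 knockout mice at embryonic day 18.5, and the wild-type group held 3 arrays of lung RNA from wild-type mice. The series description puts both genotypes at embryonic day 18.5, but the wild-type labels call the tissue neonatal, and from the labels alone genotype and age cannot be told apart. Strain, sex, litter and the construction of the knockout allele are not given in the sources used here, nor is it said that the samples came from separate animals, so each p-value reflects sample-to-sample spread that may be technical. The CARM1 protein methylates arginines of histones and of transcription coactivators. In bulk tissue, fewer cells of a type and less RNA per cell cannot be told apart.

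In vertebrate embryos LIN28 proteins bind the precursors of let-7 microRNAs and block their maturation. As tissues mature LIN28 declines, let-7 accumulates, and let-7 then represses transcripts that carry matching sites, among them those of Hmga2, the Igf2bp family, Mycn, Trim71 and Lin28 itself. HMGA2 bends DNA and promotes body growth in mice, and the IGF2BP proteins bind fetal transcripts such as Igf2. MYCN drives growth of the distal epithelium in early mouse lung.

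The let-7 family is recognised by its seed, bases 2 to 8 of the mature microRNA, which pairs with the target. In RefSeq's mouse table (build GRCm38.p6) 11 mature microRNA names from 13 loci carry the same seed. Mature microRNAs were not analysed here. The 4 sequences below are shown because they are the shared regulator that links the genes of the set, with the seed in capitals.
mmu-let-7a-5p: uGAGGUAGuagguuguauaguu
mmu-let-7d-5p: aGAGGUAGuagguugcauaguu
mmu-let-7g-5p: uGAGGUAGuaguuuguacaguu
mmu-miR-98-5p: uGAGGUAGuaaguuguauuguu
All 4 share the seed and differ outside it.

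Promoters are shown for the 3 genes whose probe sets separated the genotypes without overlap and that RefSeq's promoter table (build GRCm38.p6) holds, 250 bases before to 50 bases after the annotated start, read along the gene's strand. In Mycn the capitals mark matches to the E2F element spelled TTTGGCGC or TTTCGCGC, in Hmga2 the GC box GGGCGG and in Igf2bp3 the E-box CACGTG, the element that MYC family proteins bind, each searched on both strands. The marked motif was picked gene by gene, and the CCAAT box (CCAAT) and TATA box (TATAAA) were searched as well but not marked.
Mycn, chr12:12941787-12942086, minus strand: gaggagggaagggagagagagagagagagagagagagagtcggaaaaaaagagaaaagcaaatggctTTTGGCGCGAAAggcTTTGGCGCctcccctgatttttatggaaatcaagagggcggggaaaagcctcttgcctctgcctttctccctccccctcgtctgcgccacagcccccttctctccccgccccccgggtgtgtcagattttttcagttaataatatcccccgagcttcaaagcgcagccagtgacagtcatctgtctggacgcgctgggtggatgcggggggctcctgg
Hmga2, chr10:120476420-120476719, minus strand: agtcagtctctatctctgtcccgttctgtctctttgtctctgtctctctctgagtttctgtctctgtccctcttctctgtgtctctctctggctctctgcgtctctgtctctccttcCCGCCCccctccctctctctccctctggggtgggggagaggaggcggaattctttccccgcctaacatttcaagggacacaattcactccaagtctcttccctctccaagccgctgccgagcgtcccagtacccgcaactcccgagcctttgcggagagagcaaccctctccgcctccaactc
Igf2bp3, chr6:49214905-49215204, minus strand: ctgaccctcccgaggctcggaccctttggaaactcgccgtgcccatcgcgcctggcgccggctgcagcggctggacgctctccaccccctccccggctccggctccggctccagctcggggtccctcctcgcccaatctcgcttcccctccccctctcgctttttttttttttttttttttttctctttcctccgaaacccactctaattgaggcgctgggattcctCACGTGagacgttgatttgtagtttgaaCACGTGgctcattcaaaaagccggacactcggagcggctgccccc
The Mycn window held TTTGGCGC starting at -183 and -168 relative to the annotated start, and the first of these overlapped a reverse-strand TTTCGCGC starting at -179. Among all 32851 promoter windows of that length, 0.514% held TTTGGCGC and 0.323% held TTTCGCGC on either strand. The Igf2bp3 window held CACGTG starting at -23 and at 6, and 7.15% of all windows held it. That window also held a CCAAT box starting at -118, left in lower case, as 37.4% of all windows held one. The Hmga2 window held its GC box starting at -133, as 35.7% of all windows held one. The same letters gave a CACGTG starting at -49 in the Lin28b promoter and no E2F element in any promoter of the set besides that of Mycn. The GC box was not particular to Hmga2. It also occurred in the promoters of Lin28a, Hmga1, Igf2bp2, Trim71 and Mycn, in Mycn starting at -133 and -63 and left in lower case. These are matches of letters and not evidence of binding.

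The values are MAS5 signals, the array maker's summary of the probes of a probe set on a linear scale, each array scaled to a common level. Carm1 itself had signals of 395, 374 and 511 in the knockout lungs, against 814, 678 and 865 in the wild-type lungs, 54.0% of the wild-type level, with adjusted p = 0.105 by limma. Its probe set is of a type that can match several transcripts, and whether it lies in the altered part of Carm1 was not looked up. A probe set entered the test if its mean log2 signal exceeded the 40th percentile of all probe sets, which is a signal of 59.7, and the test was limma on log2 signals with Benjamini-Hochberg adjustment over all 27022 tested probe sets. At an adjusted p under 0.05, 8 probe sets passed, 0.0296% of those tested, 0.0259% lower and 0.0037% higher in knockout.

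The arrays differed in ways that the genotype labels do not give. Fetal liver markers had a summed signal of 181548 on knockout replicate 1 and 17516 on knockout replicate 3, against 124365 on wild type replicate 2, and between 263 and 4826 on the remaining 3 arrays. Alb, the albumin gene of hepatocytes, read 46294, 1118 and 4446 in the knockouts, against 2116, 39146 and 104 in the wild types. All 7 tested liver markers had a positive difference, with a median of 1.87 on the log2 scale, 2.42 without knockout replicate 1 and wild type replicate 2, although none reached an unadjusted p under 0.05, and Afp, Ttr and Alb, the 3 of smallest p, differed by 2.94, 2.77 and 1.58. Liver markers were highest on 1 array of each genotype. Values without those 2 arrays, that is knockout replicates 2 and 3 against wild type replicates 1 and 3, are given for the members below. Those 2 wild-type arrays carried bacterial control RNA (median control signals of 579 and 375), whereas the median was 3.77 to 14.1 on the other 4 arrays, so values without bacterial RNA (3 knockout arrays against wild type replicate 2) are also given. In that comparison the wild-type group is the liver-rich array alone, so the knockout arrays alone supply the spread, and all 7 liver markers were negative with a median of -2.73. The liver split was chosen after the values were seen. Both wild-type arrays of the liver split carry bacterial RNA, so in that split it cannot be told apart from genotype. By Y-linked genes and Xist, knockout replicate 2 and wild type replicate 3 were male and the other 4 arrays female.

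None of the 16 tested probe sets of the set passed the adjusted threshold in limma, against the background of 0.0296%. At an unadjusted p under 0.05 there were 5 of 16, or 31.2%, where 13.6% of all tested probe sets met it, 6.31% lower and 7.32% higher. These same 5 were the probe sets whose groups did not overlap, 4 lower and 1 higher in knockout, where 9.36% of all tested probe sets were lower and 10.7% higher without overlap. The 5 come from 4 genes, since 2 of them target Hmga2. Taken by sign alone, 9 of the 16 were lower, 56.2%, beside 47.3% of all tested probe sets. Lin28a, Lin28b and Trim71 had no probe set above the filter, so the tested values come from Mycn, Hmga2, Igf2bp1 and Igf2bp3.

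**Figure D1:**
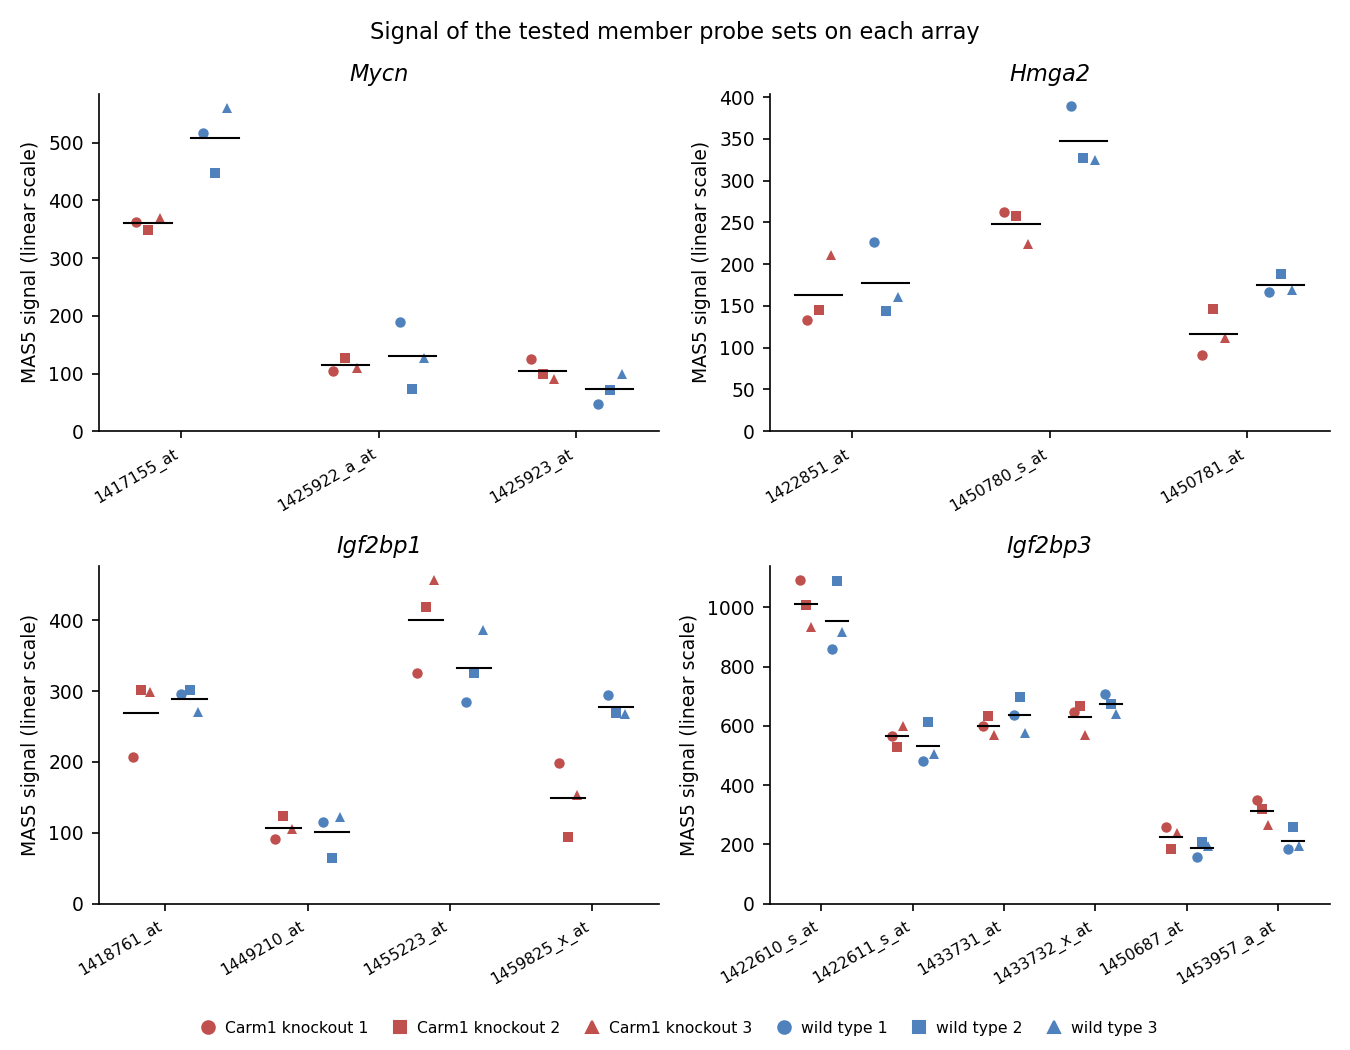
Each point is the MAS5 signal (linear axis from 0) of a tested probe set on an array, with Carm1 knockout in red left of wild type in blue, marker shapes for the replicate numbers and a line at the mean of 3 arrays. The knockout points lie below all wild-type points for 1417155_at of Mycn, for 1450780_s_at and 1450781_at of Hmga2 and for 1459825_x_at of Igf2bp1, and above them for 1453957_a_at of Igf2bp3.

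Mycn was lower in knockout lung at its probe set of highest mean, although not past the adjusted threshold. 1417155_at read 363, 348 and 369 in the knockouts, against 518, 448 and 560 in the wild types. Every knockout value was under the lowest wild-type value, and the knockouts were close together. The means were 360.3 ± 11.0 in knockout and 508 ± 56.7 in wild type (SD, n = 3 each), a log2 difference of -0.49 (SE 0.14, 95% interval -0.82 to -0.16), or 1.41-fold lower. Its p was 0.00800 unadjusted and 0.215 adjusted in limma, and an exact permutation test (two-sided) gave 0.1, the floor for groups of 3. The difference was -0.59 without the 2 liver-rich arrays and -0.31 without bacterial RNA. With the liver marker level as a term in the fit it was -0.45.

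The other probe sets of Mycn did not show the same shift. 1425922_a_at read 104, 127 and 110 in the knockouts, against 190, 72.8 and 127 in the wild types, with a log2 difference of -0.09 and groups that overlapped. That difference was -0.39 without the liver-rich arrays and turned to 0.64 without bacterial RNA. 1425923_at read 125, 99.4 and 90.9 in the knockouts, against 47.4, 71.4 and 98.7 in the wild types, a difference of 0.59 with an interval from -0.22 to 1.39, 0.48 without the liver-rich arrays and 0.55 without bacterial RNA. The 95% interval of 1425922_a_at, -0.90 to 0.73, includes the difference of 1417155_at, and that of 1425923_at does not. Across the 6 arrays the 3 probe sets had pairwise correlations from -0.54 to 0.33, as a description over arrays that differ in genotype and liver RNA. Mycn lies on chromosome 12, and which of its exons each probe set matches was not looked up here.

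Hmga2, on chromosome 10, was lower at 2 of its 3 tested probe sets. 1450780_s_at, the probe set of highest mean, read 262, 257 and 224 in the knockouts, against 389, 327 and 324 in the wild types. Like the Carm1 probe set, it is of a type that can match several transcripts. The groups did not overlap. Means were 248 ± 20.6 in knockout and 347 ± 36.9 in wild type (SD, n = 3 each), a log2 difference of -0.48 (SE 0.17, 95% interval -0.86 to -0.10), or 1.40-fold lower. Its p was 0.0184 unadjusted and 0.273 adjusted in limma, and 0.1 in the exact permutation test. 1450781_at read 91.2, 146 and 112 in the knockouts, against 167, 188 and 169 in the wild types, a difference of -0.61 (SE 0.25, adjusted p = 0.339 in limma). This pair also did not overlap, with knockout replicate 2 nearest to the wild types.

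The third tested probe set of Hmga2 overlapped between genotypes. 1422851_at read 133, 145 and 211 in the knockouts, against 227, 144 and 161 in the wild types, a difference of -0.12 that was -0.13 without the liver-rich arrays and turned to 0.15 without bacterial RNA. Without the 2 liver-rich arrays, 1450780_s_at differed by -0.57 and 1450781_at by -0.39, and without bacterial RNA by -0.40 and -0.72. The fourth probe set, 1446196_at, stayed below the filter with signals from 26.8 to 39.4 in the knockouts, against 3.10 to 43.0 in the wild types.

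Igf2bp1, on chromosome 11, encodes an RNA-binding protein that holds fetal transcripts in the cytoplasm, and its 4 probe sets went different ways. 1455223_at, the probe set of highest mean, read 326, 419 and 457 in the knockouts, against 285, 325 and 387 in the wild types. The groups overlapped, with a log2 difference of 0.27 (SE 0.19, 95% interval -0.16 to 0.70, adjusted p = 0.580 in limma), 0.40 without the liver-rich arrays and 0.29 without bacterial RNA. 1459825_x_at read 199, 94.7 and 153 in the knockouts, against 295, 269 and 268 in the wild types. That was a difference of -0.96 (SE 0.28, 95% interval -1.59 to -0.33, adjusted p = 0.208 in limma), the largest of the 16 in size, at a probe set whose suffix marks probes that may cross-hybridise. It was -1.22 without the 2 liver-rich arrays and -0.92 without bacterial RNA.

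The remaining probe sets of Igf2bp1 had groups that overlapped. 1418761_at differed by -0.12, by 0.09 without the liver-rich arrays and by -0.19 without bacterial RNA. 1449210_at differed by 0.12, by -0.06 without the liver-rich arrays and by 0.71 without bacterial RNA. Pairwise correlations among the 4 probe sets over the 6 arrays ran from -0.71 to 0.35. The 4 probe sets did not share a direction.

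Igf2bp3, on chromosome 6, encodes a fetal member of the same RNA-binding family and had 6 tested probe sets, 5 of them with overlapping groups. 1422610_s_at, also of the type that can match several transcripts, read 1092, 1007 and 935 in the knockouts, against 859, 1089.95 and 915 in the wild types. The means were 1011 ± 78.8 in knockout and 954 ± 121 in wild type (SD, n = 3 each), a log2 difference of 0.09 (SE 0.13, 95% interval -0.20 to 0.38, adjusted p = 0.808 in limma). The interval leaves room for changes between 0.869-fold and 1.30-fold. The difference was 0.13 without the liver-rich arrays and turned to -0.11 without bacterial RNA. The highest knockout and the highest wild-type value fell on the 2 liver-rich arrays.

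Of the other 5, 1422611_s_at, 1433731_at, 1433732_x_at and 1450687_at differed by 0.09, -0.08, -0.10 and 0.27 with overlapping groups. In the same order they differed by 0.19, -0.01, -0.13 and 0.25 without the liver-rich arrays, and by -0.12, -0.22, -0.11 and 0.11 without bacterial RNA. By their suffixes, 1422611_s_at can match several transcripts and 1433732_x_at may cross-hybridise. The sixth, 1453957_a_at, read 349, 320 and 266 in the knockouts, against 184, 260 and 195 in the wild types. All 3 knockout arrays lay above the wild types, by a margin of a few signal units between knockout replicate 3 and wild type replicate 2. Its log2 difference was 0.56 (SE 0.21, 95% interval 0.09 to 1.02, adjusted p = 0.293 in limma, exact permutation p = 0.1), 0.63 without the 2 liver-rich arrays and 0.25 without bacterial RNA. In 3 of the 6 probe sets of Igf2bp3 the liver-rich array was the highest of its genotype in both groups, and in 5 of the 6 wild type replicate 2 was the highest wild type.

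**Figure D2:**
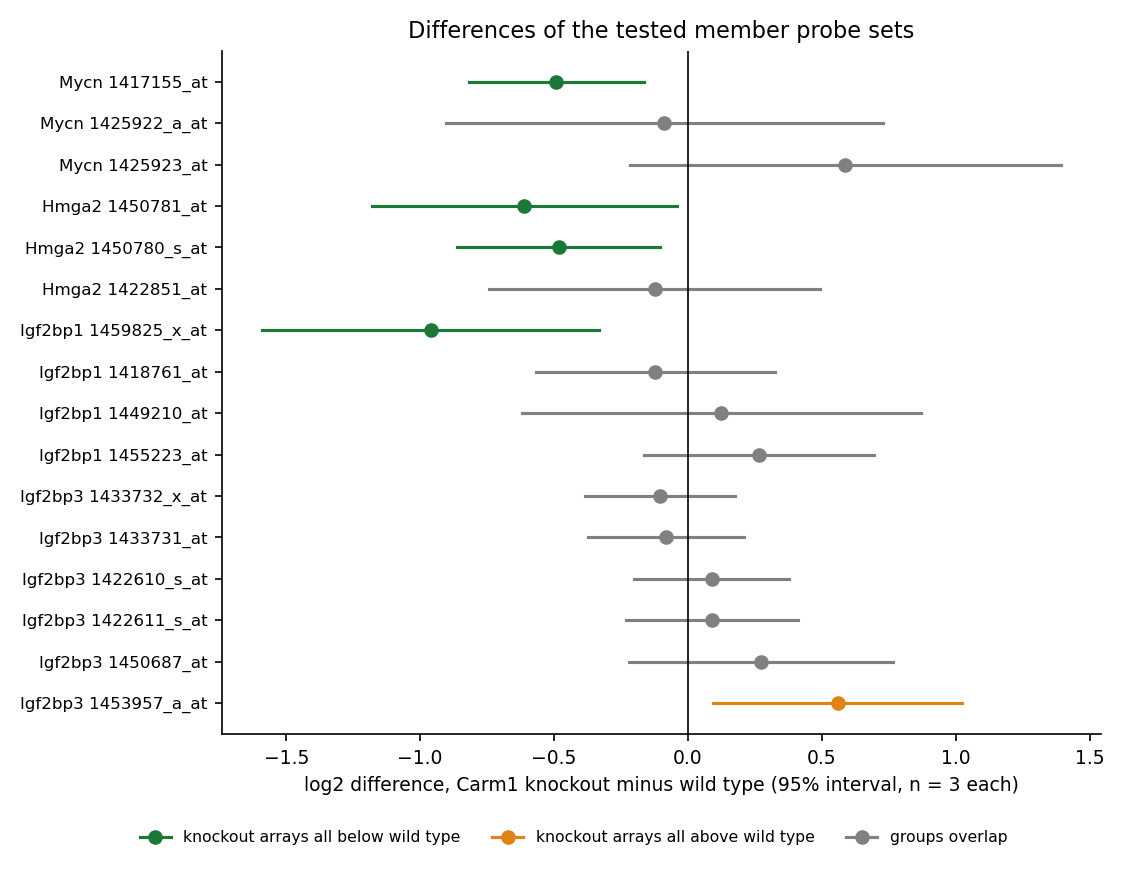
Log2 differences, Carm1 knockout minus wild type, of the 16 tested probe sets with 95% intervals from limma (n = 3 arrays each), grouped by gene. The 4 green probe sets had all knockout arrays below the wild types, the orange one had all above, and the 11 grey ones overlapped.

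Lin28a and Lin28b, which in the embryo hold let-7 back, lay below the filter at every probe set. The single Lin28b probe set read 0.626, 1.98 and 3.61 in the knockouts, against 10.7, 0.288 and 2.38 in the wild types. Its lowest knockout and lowest wild-type values were those of the 2 liver-rich arrays. At 1437752_at of Lin28a, by contrast, the 2 liver-rich arrays held the highest value of each genotype. The Lin28a probe set 1421749_at read 12.4, 4.65 and 22.9 in the knockouts, against 3.84, 13.8 and 30.6 in the wild types. 1437752_at read 53.3, 10.8 and 4.29 in the knockouts, against 10.4, 31.3 and 19.7 in the wild types. Both spreads were wider than any difference between the genotypes.

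Trim71, a ubiquitin ligase and RNA-binding protein first known as the let-7 target lin-41 of Caenorhabditis elegans, was low as well. 1453599_at read 58.7, 48.8 and 66.2 in the knockouts, against 21.6, 59.1 and 38.7 in the wild types, and the groups overlapped. 1456673_at read 9.50, 7.25 and 6.08 in the knockouts, against 9.37, 3.12 and 11.0 in the wild types. In a limma fit with no filter, none of the 6 low probe sets had an unadjusted p under 0.26. Signals this low do not show that a transcript is absent, only that no difference was detectable on these arrays.

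**Figure D3:**
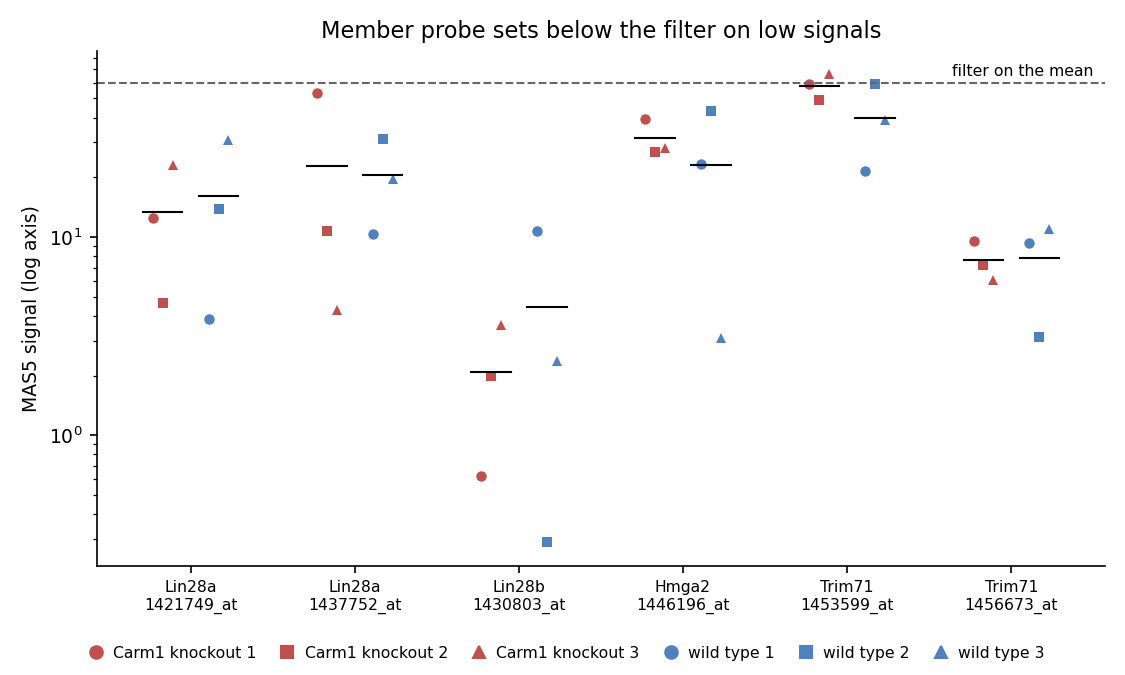
MAS5 signals (log axis) of the 6 probe sets of the set that lay below the filter, with Carm1 knockout in red left of wild type in blue, a line at each mean of 3 arrays and a dashed line at the filter of 59.7. The genotypes overlap at all 6.

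Because let-7 sits between LIN28 and the other members, genes that process let-7 or act with LIN28 were read as a list written with earlier results of these data known. The other gene lists were written in the same way. All 19 were tested, 10 higher and 9 lower in knockout, with a median log2 difference of 0.00 beside 0.03 over all 12947 genes tested, 54.6% of which were higher and 45.4% lower. Unadjusted p was under 0.05 for 2 in each direction, and 0 passed the adjusted threshold, where 9.14% of all genes were higher and 7.36% lower at an unadjusted p under 0.05. Tut7, a terminal uridyltransferase that tails let-7 precursors, read 1647, 1778 and 1509 in the knockouts, against 2042, 2094 and 1879 in the wild types, 1.22-fold lower. Hnrnpa1, an RNA-binding protein that modulates let-7 processing, differed by 0.39 and Ran, the GTPase that carries precursors out of the nucleus with exportin, by 0.31 on the log2 scale. Drosha, Dicer1 and Tut4, 3 enzymes of the pathway picked for their role after the values were seen, differed by 0.10, -0.07 and 0.05.

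Other transcripts described as let-7 targets were tested for 18 of 20 listed genes, 13 higher and 5 lower, with a median of 0.13. Over all genes, 54.6% were higher. Of the 18, 2 were higher and 1 was lower at an unadjusted p under 0.05, and 0 passed the adjusted threshold in limma. At that unadjusted p, 9.14% of all genes were higher and 7.36% lower. Nap1l1, a histone chaperone, read 11467, 11242 and 9840 in the knockouts, against 8878, 9150 and 8506 in the wild types, a difference of 0.29. Igf1r, the receptor for insulin-like growth factors, differed by -0.26 and E2f6, a repressor of the E2F family, by 0.34. The median of the list was 0.06 without the 2 liver-rich arrays and 0.03 without bacterial RNA.

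Other fetal growth genes that decline after birth formed a further list, also written with earlier results of these data known. Of 16 tested, 15 were higher and 1 lower, beside 54.6% of all genes higher, with a median of 0.25 that was 0.28 without the 2 liver-rich arrays and 0.25 without bacterial RNA. At an unadjusted p under 0.05, 6 were higher and 0 lower, where 9.14% of all genes were higher and 7.36% lower, and 0 passed the adjusted threshold in limma. Igf2, the fetal insulin-like growth factor whose transcript the IGF2BP proteins bind, read 12085, 11528 and 17232 in the knockouts, against 6529, 9048 and 6832 in the wild types, 1.81-fold higher with adjusted p = 0.130. Mex3a, an RNA-binding protein, differed by 0.57 and Gpc3, a cell-surface proteoglycan that restrains growth, by 0.32. The imprinted gene Dlk1 was the 1 lower member, at -0.18.

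The proliferation genes were likewise a list written with earlier results of these data known. All 13 tested had positive differences, beside 54.6% of all genes, with a median of 0.74. Of them 12 had an unadjusted p under 0.05, where 9.14% of all genes were higher at that p, and 0 passed the adjusted threshold in limma. The groups overlapped for 5 of the 13 and were higher without overlap for 8, where 10.7% of all tested probe sets were higher without overlap. Mcm5, a subunit of the replication helicase, read 2341, 1723 and 2629 in the knockouts, against 1011, 1218 and 1317 in the wild types. Uhrf1, which maintains DNA methylation through replication, differed by 0.86 and Pcna, the replication clamp, by 0.41. The median was 0.63 without the 2 liver-rich arrays and 0.47 without bacterial RNA. At their probe sets of highest mean, Mycn and Hmga2 had negative differences on these same arrays. Igf2bp1 and Igf2bp3 had positive ones there, as the proliferation genes did.

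**Figure D4:**
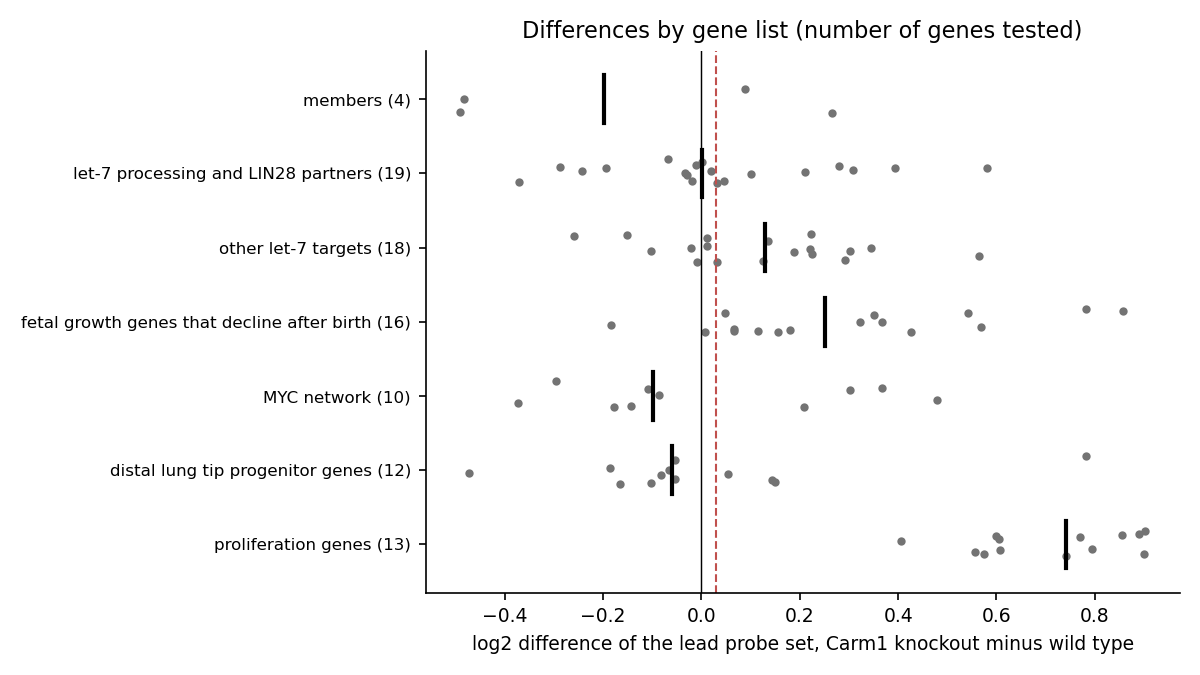
Each point is the log2 difference, Carm1 knockout minus wild type, of the tested probe set of highest mean of a gene, by list, with a black bar at the list median and a dashed red line at the median of all genes tested (0.03). The medians are -0.20 for the 4 member genes (2 higher and 2 lower, -0.085 with the mean of a gene's probe sets), 0.25 for fetal growth genes and 0.74 for proliferation genes.

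Partners of MYCN and genes of the distal lung tip, where Mycn is expressed in the early mouse lung, were mixed in sign. Of 10 genes of the MYC network 4 were higher and 6 lower, with a median of -0.10. That median was -0.18 without the liver-rich arrays and -0.01 without bacterial RNA. At an unadjusted p under 0.05 in limma there were 2 higher and 1 lower, where 9.14% of all genes were higher and 7.36% lower. Mxd4, a MAX partner that opposes MYC, differed by -0.37, Mxd3, of the same family, by 0.48 and Mycl, the third MYC gene, by 0.37. Myc itself, named for its role after the values were seen, differed by 0.30. Of 12 tip genes 4 were higher and 8 lower, with a median of -0.06 that was -0.09 without the liver-rich arrays and turned to 0.11 without bacterial RNA. Shh, the hedgehog ligand of lung epithelium, read 5147, 4933 and 4366 in the knockouts, against 6915, 6390 and 6711 in the wild types, a difference of -0.47 with adjusted p = 0.129 in limma. Sox11 and Etv5 differed by 0.78 and -0.17 with overlapping groups.

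The lung label was borne out by all 8 defining markers, which were all above the filter, with summed signals of 129579 to 156941 in the knockouts, against 147731 to 203645 in the wild types. Cldn18, a lung claudin, Aqp5, a water channel, and Ager, a receptor of alveolar type I cells, differed by -0.65, -1.72 and -0.55. Of the 8, 6 were lower, beside 45.4% of all genes. The list median was -0.29, -0.53 without the liver-rich arrays and -0.08 without bacterial RNA. Embryonic and fetal erythroid markers summed to 13873 to 30812 in the knockouts, against 9535 to 20630.5 in the wild types. Of 7 tested, 6 were higher, beside 54.6% of all genes, with a median of 1.29. The median was 1.17 without the liver-rich arrays and 0.09 without bacterial RNA, where 4 of 7 were higher and Hbb-y differed by 1.67. The embryonic globins Hbb-y, Hba-x and Hbb-bh1 differed by 2.88, 2.32 and 1.40 with groups that did not overlap. The other 4 of the 7 overlapped, and 10.7% of all tested probe sets were higher without overlap. At Hbb-y knockout replicate 1, the liver-rich knockout, was highest at 11210.3. Hba-x and Hbb-bh1 differed by 1.22 and 1.06 without bacterial RNA. Without the liver-rich arrays the 3 globins differed by 2.80, 2.19 and 1.09. Heart muscle markers summed to 13089 to 40415 in the knockouts, against 4616 to 16073 in the wild types. All 6 tested were higher, where 54.6% of all genes were, but the groups overlapped at each of the 6. Their array mean was highest on knockout replicate 2 and lowest on wild type replicate 3. Actc1, Myl4 and Myh6 differed by 1.53, 1.18 and 1.01. Without bacterial RNA those 3 genes differed by 0.74, 0.42 and 0.23, 4 of the 6 were higher and the list median was 0.26, against 0.89 over all arrays and 1.5 without the liver-rich arrays. Nppa, the atrial peptide gene, chosen after its values were seen, lay below the filter on its mean with signals from 38.8 to 4653.9 in the knockouts, against 2.00 to 9.81 in the wild types. None of the 7 thymus markers passed the filter. The part of erythroid, heart and liver RNA in the member values was not tested. The member values without the liver-rich arrays do not remove liver RNA as a difference between the groups. In that split the liver list median was 2.42, against 1.87 over all arrays.

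**Figure D5:**
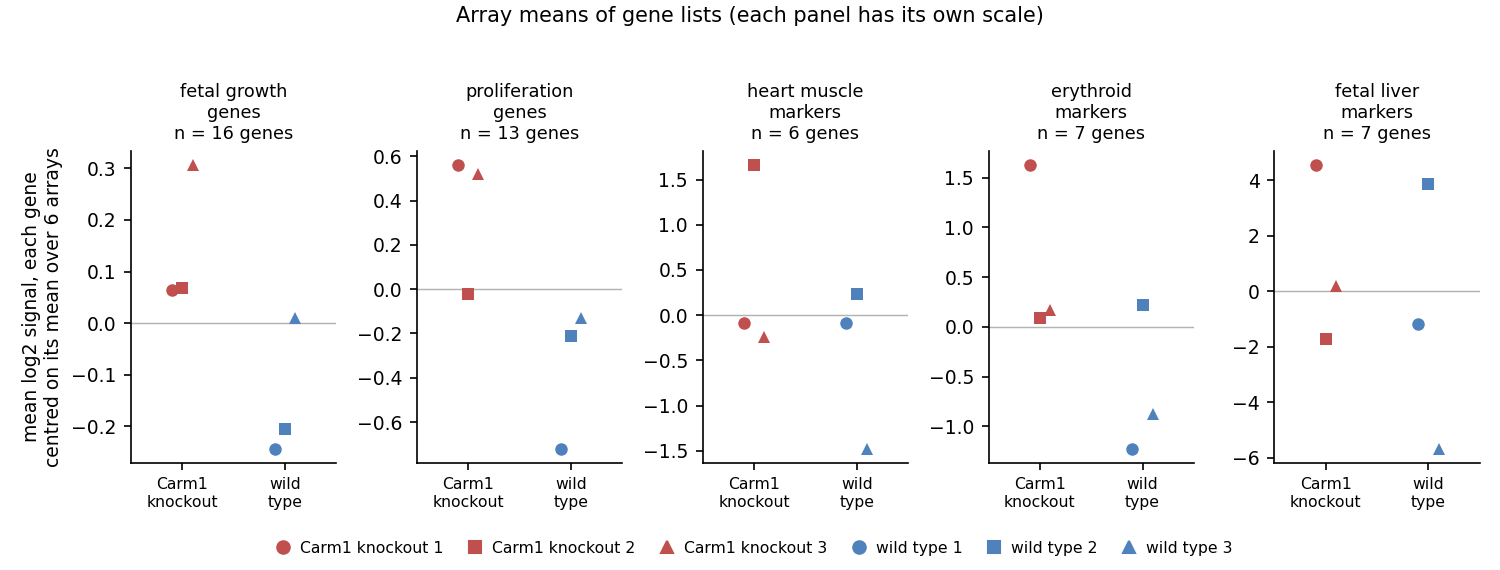
Mean log2 signal of each gene list per array, each gene centred on its mean over the 6 arrays, with Carm1 knockout in red left of wild type in blue and marker shapes for replicate numbers; each panel has its own scale. Fetal liver markers stand at 4.54 on knockout replicate 1 and 3.86 on wild type replicate 2, and heart markers are highest on knockout replicate 2 at 1.66.

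For each member gene, the genes whose probe set of highest mean followed its own most closely over the 6 arrays were taken from 12946 others. The nearest to Hmga2 were Gm11266, C6 and Emp2, with Pearson r of 0.998, 0.997 and 0.996. C6 encodes a complement component and Emp2 a membrane protein abundant in alveolar type I cells, and their log2 differences were -1.92 and -0.80. The nearest to Mycn were Polk, a translesion DNA polymerase, Shroom2 and the autophagy kinase Ulk2, with r of 0.994, 0.991 and 0.990, and differences of -0.26, -0.24 and -0.28. Igf2bp3 was followed most closely by Hadhb, an enzyme of mitochondrial fatty acid oxidation, Hnrnpul1 and Fam122b, at r of 0.983, 0.981 and 0.980. Igf2bp1 was followed by Tmem64, Polr1a and Haus5, at r of 0.997, 0.992 and 0.986. As these genes were picked for the highest correlation among all, over 6 arrays that share genotype groups and liver RNA, the values are a description only.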

How the data were processed

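Total RNA of mouse lung was converted to cRNA and hybridised to Affymetrix mouse expression arrays, per the labels' protocols. What the authors deposited are linear MAS5 intensity values. MAS5 is named in the submitters' processing notes, without a version. Leaving out 2% of probe sets at either end, each array had a mean of 500, so all were on a common scale before any step here.

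Groups came from the sample labels. Of 45101 probe sets, 64 were controls, 34958 had 1 symbol, 932 several and 9211 none, and gene IDs gave current RefSeq symbols (GRCm38.p6) for 34754. Correlations between arrays were 0.906 to 0.926, so none was a copy of another.

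The log2 signals, with no pseudocount, were fitted with limma 3.58.1 (R 4.3.3, with version 1.17.8 of the data.table package; lmFit, eBayes with an intensity trend, two-sided) on all 27022 tested probe sets with Benjamini-Hochberg adjustment. Each gene was represented by its tested probe set of highest mean. Named genes were all members, Carm1, the 3 of smallest p in each list with none past the adjusted threshold, and the 3 nearest in correlation to each member; others were named after their values were seen. The members and lists were chosen with earlier results of these data known. On data simulated for this comparison with 27022 probe sets, 10.8% of 1.5-fold, 37.2% of 2-fold and 81.4% of 4-fold changes passed. Alternatives were quantile normalization, a pseudocount of 16, filters at the 20th and 60th percentile or none, other variance models, sex and bacterial RNA as terms, only arrays without bacterial RNA, a replicate block, the mean of a gene's probe sets, leaving out each array, and 3 settings for the liver-rich arrays chosen after seeing the data. Only 3 arrays a group limit the precision.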

Additional observations from a re-analysis of the deposited data

How the results depend on the processing

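No probe set of the member genes passed the adjusted threshold under any of the 20 alternatives. In 8 of these settings the log2 differences are the same by construction. In the other 12 settings, 176 of 192 recomputed values kept their direction and 16 reversed. Bacterial RNA as a term and only arrays without it gave the same differences, so these values and their reversals are counted in both settings. Mycn 1417155_at ranged from -0.59 to -0.31 on the log2 scale, Hmga2 1450780_s_at from -0.57 to -0.40, Hmga2 1450781_at from -0.79 to -0.39, Igf2bp1 1459825_x_at from -1.22 to -0.67 and Igf2bp3 1453957_a_at from 0.25 to 0.71. With bacterial RNA as a term, or only arrays without it, the difference reversed to 0.15 for Hmga2 1422851_at, -0.11 for Igf2bp3 1422610_s_at, -0.12 for Igf2bp3 1422611_s_at and 0.64 for Mycn 1425922_a_at, which was 0.059 with the liver marker level as a term. Without the liver-rich arrays, Igf2bp1 1418761_at reversed to 0.088 and Igf2bp1 1449210_at to -0.064. Leaving out 1 array gave -0.32 to 0.069 for Hmga2 1422851_at, reversed at 0.069 without wild type replicate 1 and at 0.0063 without knockout replicate 1. It gave -0.21 to 0.055 for Igf2bp1 1418761_at, reversed without knockout replicate 1, and -0.17 to 0.29 for Igf2bp1 1449210_at, reversed without wild type replicate 2. It gave -0.45 to 0.24 for Mycn 1425922_a_at, reversed without wild type replicate 1. The median over the 4 tested member genes was -0.20, was -0.23 to -0.13 leaving out 1 array, with the smallest size without knockout replicate 3, and was -0.085 with the mean of a gene's probe sets. Over the whole table the 8 calls became 0 with no intensity trend, 40 with robust variance, 4 with sex as a term, 2 with bacterial RNA as a term, 3 with only arrays without bacterial RNA, 16 with the liver-rich arrays as a term, 4 with the liver marker level as a term and 58 with only arrays low in liver markers. Leaving out 1 array gave 0 to 13 calls, 13 without knockout replicate 1, 2 without wild type replicate 2 and 0 without any other. The replicate block gave 0 calls. Deviations of same-numbered arrays correlated at -0.14, -0.38 and -0.0056, and 0 of 6 arrays correlated best with its own number. Liver markers were highest on knockout replicate 1 and wild type replicate 2, which differ in number and enter these correlations. The correlations therefore cannot decide whether shared replicate numbers pair the arrays. The causes of the changed calls and directions were not tested. With 3 arrays a group, differences near 1.5-fold mostly stay below the adjusted threshold in simulated data.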
